A study of Homo sapiens with 4 samples.

Results

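Transcripts of 10 genes that set how a cell responds to death ligands were followed in MDA-MB-231, an established human cell line from a triple-negative breast cancer. They were taken from a table of 20263 genes by matching Ensembl gene IDs to symbols: the receptors TNFRSF10A, TNFRSF10B, TNFRSF10D, FAS and TNFRSF1A, the adaptor FADD, the caspase-8 inhibitor CFLAR (FLIP), and the inhibitors of apoptosis BIRC2, BIRC3 and XIAP. All 10 were found, and all 10 passed the filter on low counts that left 13612 genes for testing. The cells had been grown in medium with serum and held for 24 h with RB-1, named in the series title as derived from ribociclib, an inhibitor of the kinases CDK4 and CDK6, or with the solvent DMSO. The labels give no dose of RB-1. Each group had 2 libraries, and the labels do not say whether these came from separate cultures. The p-values therefore reflect library-to-library spread only, and that spread may be technical.

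Death receptors are members of the TNF receptor family whose inner part carries a death domain. When a ligand such as TRAIL or FAS ligand clusters them, the adaptor FADD brings caspase-8 to the receptor, where it activates itself. FLIP, which resembles caspase-8 but lacks its activity, competes for FADD. The IAP proteins act later or beside this step: XIAP binds and blocks effector caspases, while cIAP1 (BIRC2) and cIAP2 (BIRC3) attach ubiquitin in the complex under TNF receptor 1 and so favour NF-kB signalling over death.

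Library totals ran from 34122874 to 37754168 counts. The line's markers VIM, CD44 and KRT18 summed to 4282 to 5134 CPM (gene counts scaled to library size) in DMSO and 5547 to 6123 CPM in RB-1. Most of this sum was VIM. CD44 was at 483 and 581 CPM in DMSO and 447 and 416 CPM in RB-1. KRT18 was at 235 and 311 CPM in DMSO and 253 and 165 CPM in RB-1. ESR1 was at most 0.659 CPM, PGR at most 1.77 CPM, and CDH1 was at or near 0. ERBB2 was at 57.3 to 77.2 CPM and EPCAM at 9.46 to 13.5 CPM. Of 10 markers of leukocytes, endothelium and fibroblasts, CD3E and DCN had no count in any library, and all but CD68 were at 8.09 CPM or less. CD68, a lysosomal protein, was at 160 to 340 CPM. Fold changes over all genes followed transcript length: the share of genes called higher was 23.2% in the quartile with the shortest transcripts and 5.09% in the quartile with the longest, and the share called lower was 4.85% and 31.0%.

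The promoters of BIRC3, BIRC2 and CFLAR are shown first. All are among the genes below whose libraries differ most within a group, and BIRC3 and CFLAR are known as NF-kB targets. A link between these gaps and NF-kB was not tested. Each run is the 250 bases before a RefSeq transcript start (GRCh38.p14), 5′ to 3′ on the gene's strand, with matches to the NF-kB consensus on either strand in capitals. BIRC3 is from chr11:102317234-102317483 (plus strand), BIRC2, its neighbour, from chr11:102346964-102347213 (plus strand), and CFLAR from chr2:201118466-201118715 (plus strand).
BIRC3: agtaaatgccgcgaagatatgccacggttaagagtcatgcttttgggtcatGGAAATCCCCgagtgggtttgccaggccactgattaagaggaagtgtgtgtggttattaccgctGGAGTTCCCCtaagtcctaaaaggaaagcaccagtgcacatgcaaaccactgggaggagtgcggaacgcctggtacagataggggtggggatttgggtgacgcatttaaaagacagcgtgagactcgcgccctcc
BIRC2: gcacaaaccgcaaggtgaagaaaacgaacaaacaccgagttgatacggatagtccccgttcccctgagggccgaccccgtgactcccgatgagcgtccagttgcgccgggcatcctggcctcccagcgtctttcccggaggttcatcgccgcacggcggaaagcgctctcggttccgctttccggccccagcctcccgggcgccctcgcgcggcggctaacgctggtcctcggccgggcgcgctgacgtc
CFLAR: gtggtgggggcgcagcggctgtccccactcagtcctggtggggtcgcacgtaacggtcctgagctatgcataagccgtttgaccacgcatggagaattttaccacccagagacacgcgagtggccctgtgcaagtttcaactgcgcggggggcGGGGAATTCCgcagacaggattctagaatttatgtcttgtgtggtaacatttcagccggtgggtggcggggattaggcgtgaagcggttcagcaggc
The BIRC3 window holds 2 matches, which begin 199 and 135 bases before the start. The CFLAR window holds 1, which begins 97 bases before it, and the BIRC2 window holds none. Among 35114 such windows, 5.21% hold at least 1 match and 0.635% hold 2 or more. A match is a string of letters and was not tested as a binding site. Windows were also found for FAS, FADD, TNFRSF1A and XIAP, of which 1 FAS window holds 1 match. Those of TNFRSF10A, TNFRSF10B and TNFRSF10D are not analysed here. CFLAR has 3 further windows at other starts and BIRC2 has 1, all without a match.

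Of the 10 genes, 2 rose after RB-1 and none fell: the TRAIL receptor gene TNFRSF10B and the decoy receptor gene TNFRSF10D, each to more than double its DMSO level. By edgeR's quasi-likelihood test with an adjusted p under 0.05, 12.5% of all tested genes were called higher and 15.8% lower, or 28.3% in either direction, so 2 of 10 lies near the background. At an unadjusted p under 0.05 the edgeR test had 5 of the genes higher and 0 lower, against 19.6% and 21.7% of all tested genes. DESeq2 had 5 higher and 0 lower at that threshold and limma-voom 4 and 0. The shares of all tested genes in DESeq2 and limma-voom at that threshold are not given here, so these counts have no background. In RNA from a whole culture, fewer cells that express a gene and less of its RNA per cell cannot be told apart. The median log2 fold change of the 10 was 0.51, against 0.01 over all tested genes. Both RB-1 libraries lay above both DMSO libraries in 5 of the genes and below them in 1. Of all tested genes, 35.3% lay wholly above, 34.3% wholly below and 69.7% one or the other.

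**Figure D1:**
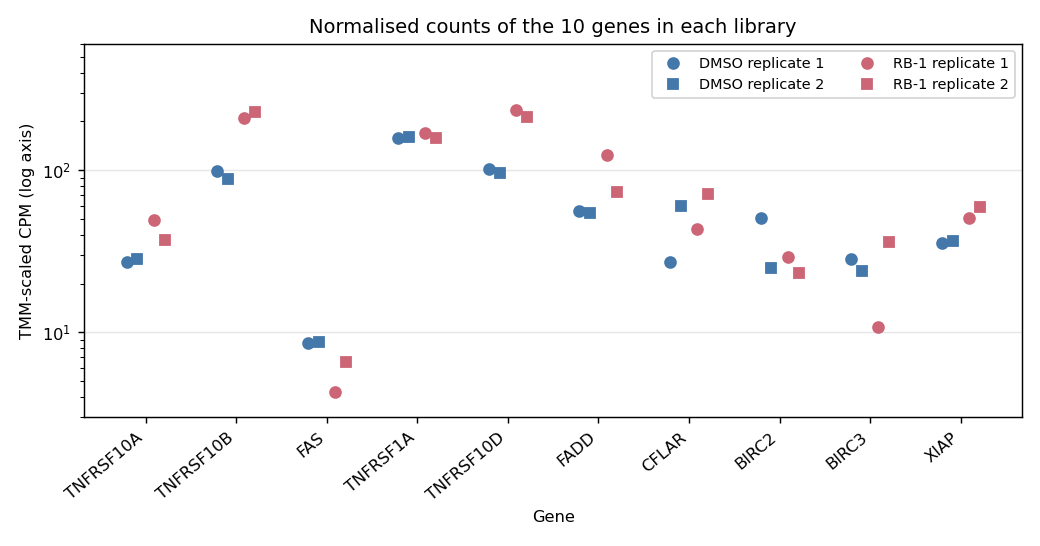
Normalised counts (CPM, log axis) of the 10 genes on the x axis, with 1 point for each DMSO library (blue) and RB-1 library (red), circles for replicate 1 and squares for replicate 2. TNFRSF10B and TNFRSF10D lie at 88.8 to 102 CPM in DMSO and 209 to 233 CPM in RB-1, while the BIRC3 libraries of RB-1 lie at 10.8 and 36.3 CPM, on either side of the DMSO libraries.

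TNFRSF10B encodes DR5, the death receptor for TRAIL whose gene is known as a target of p53 and of the stress factor CHOP. Its level (ENSG00000120889) was 99.1 and 88.8 CPM in DMSO and 209 and 229 CPM in RB-1. The RB-1 libraries were close to each other and well above both DMSO libraries. RB-1 over DMSO gave a log2 fold change of 1.22 ± 0.23 (SE), with a 95% interval from 0.71 to 1.73 (edgeR adjusted p = 0.0045). TNFRSF10D encodes DcR2, which binds TRAIL but has a truncated death domain and does not signal death. Its level (ENSG00000173530) was 102 and 96.7 CPM in DMSO and 233 and 213 CPM in RB-1, again with no overlap. Its log2 fold change was 1.17 ± 0.23, with an interval from 0.66 to 1.67 (edgeR adjusted p = 0.00507).

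The ratio of the death receptor to the decoy overlapped between DMSO and RB-1. TNFRSF10B had 0.969 and 0.919 counts per TNFRSF10D count in the DMSO libraries and 0.895 and 1.07 in the RB-1 libraries. With 2 libraries a group, such overlap does not show that the ratio was unchanged. Both genes passed in each of the 16 alternative settings, with log2 fold changes of 1.15 to 1.41 for TNFRSF10B and 1.11 to 1.36 for TNFRSF10D. With the length and GC correction they stood at 1.29 and 1.25. Their transcripts of 4146 and 3538 bases fall in the second-longest quartile, where 8.86% of genes were called higher. The genes are related in sequence, yet only 1.0% of the 50-base words in TNFRSF10B transcripts and 0.831% of those in TNFRSF10D transcripts occur in another annotated gene.

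TNFRSF10A encodes DR4, the other TRAIL receptor with a working death domain. Its level (ENSG00000104689) was 27.0 and 28.4 CPM in DMSO and 48.9 and 37.3 CPM in RB-1. Both RB-1 libraries were the higher, but the change of 0.64 ± 0.28 on the log2 scale did not pass (edgeR adjusted p = 0.115), and its interval ran from 0.01 to 1.26. About 9.01% of its exon bases overlap AC100861.1 on the opposite strand. The count of TNFRSF10B per TNFRSF10A count was 3.67 and 3.12 in DMSO and 4.27 and 6.13 in RB-1, without overlap. With 2 libraries against 2, an exact permutation test of such a ratio cannot go below p = 0.333. TNFRSF10C, a decoy without an inner part, had 3.18 and 2.47 CPM in DMSO and 5.64 and 4.25 CPM in RB-1. Its change was 0.81 ± 0.37 (edgeR adjusted p = 0.123), and 35.4% of its 50-base words also occur in another gene, so its counts are uncertain.

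FAS encodes the receptor of FAS ligand and had the lowest count of the receptors among the 10 genes. Its level (ENSG00000026103) was 8.57 and 8.76 CPM in DMSO and 4.29 and 6.60 CPM in RB-1. The RB-1 libraries were both lower and differed from each other by 1.54-fold. On the log2 scale the change of -0.67 ± 0.34 did not pass (edgeR adjusted p = 0.166), with an interval from -1.43 to 0.09. About 8.93% of its exon bases overlap ACTA2 on the opposite strand, which had 2.01 and 3.57 CPM in DMSO and 6.47 and 6.86 CPM in RB-1. The share of ACTA2 reads in the FAS counts was not tested.

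TNFRSF1A encodes TNF receptor 1, which signals mainly to NF-kB and only under some conditions to death. Its level (ENSG00000067182) was 157 and 161 CPM in DMSO and 170 and 158 CPM in RB-1, with overlapping groups. They differed by a log2 fold change of 0.04 ± 0.22 (edgeR adjusted p = 0.905). In the reported fit its interval, from -0.45 to 0.54, ended short of a 1.5-fold change in either direction. That bound is of this fit alone. The 16 alternatives ran from -0.27 ± 0.18 with the length and GC correction to 0.24 ± 0.24 with library totals alone.

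**Figure D2:**
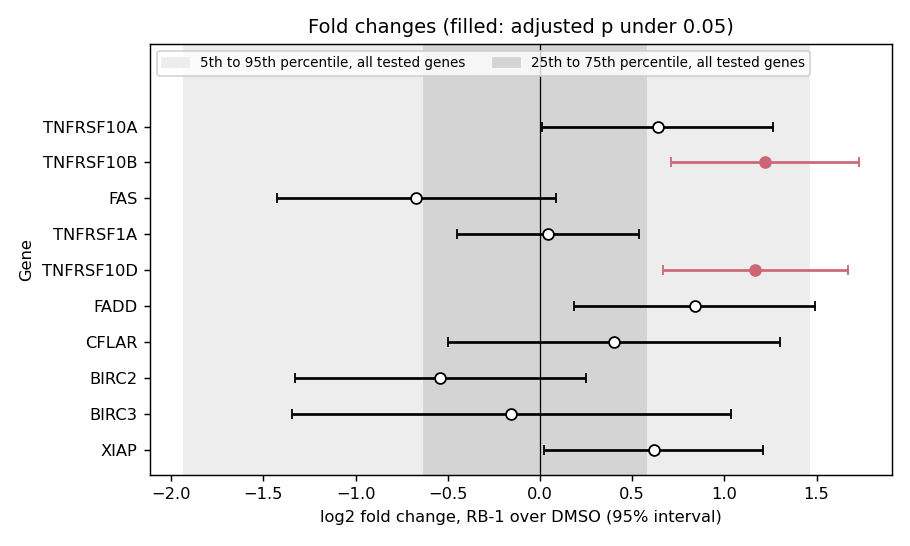
Log2 fold change of RB-1 over DMSO (x axis) for each of the 10 genes (y axis), with 95% intervals. Filled points passed an adjusted p under 0.05, and the grey bands span the 25th to 75th and the 5th to 95th percentile of all 13612 tested genes. TNFRSF10B (1.22) and TNFRSF10D (1.17) are the filled points, and both lie inside the wider band, which ends at 1.46.

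FADD is the adaptor that links the clustered receptor to caspase-8. Its level (ENSG00000168040) was 55.7 and 54.2 CPM in DMSO and 124 and 73.0 CPM in RB-1. Both RB-1 libraries were above the DMSO libraries, but they differed from each other by 1.69-fold, against 1.03-fold in DMSO. Its log2 fold change of 0.84 ± 0.30 narrowly missed the threshold (edgeR adjusted p = 0.0555). It passed in 6 of the 16 alternatives, among them without RB-1 replicate 2 (1.17, adjusted p = 0.0134). Without RB-1 replicate 1 it was 0.41 (adjusted p = 0.306), and with a correction for transcript length and GC content it was 0.40 (adjusted p = 0.176). FADD lies in the quartile of shortest transcripts, at 1841 bases, where the median log2 fold change was 0.47. Its counts are uncertain for another reason: 54.9% of its exon bases overlap AP000879.1 on the opposite strand, a gene not analysed here, and whether the counting used strand is not stated.

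CFLAR encodes FLIP, the brake on caspase-8 at the receptor. Its level (ENSG00000003402) was 27.2 and 59.8 CPM in DMSO and 43.4 and 71.3 CPM in RB-1. Replicate 2 was the higher library in each group, by 2.20-fold in DMSO and 1.64-fold in RB-1, and the groups overlapped. The log2 fold change was 0.40 ± 0.40 (edgeR adjusted p = 0.484), with an interval from -0.50 to 1.30, so neither no change nor a doubling lay outside it. It was -0.06 without DMSO replicate 1 and 1.10 without DMSO replicate 2. With the length and GC correction it was 1.30 (adjusted p = 0.0822). Counts were per gene, so the long and short forms of FLIP were not told apart. Of the 50-base words in CFLAR transcripts, 4.21% occur in other genes. The largest exon overlap, 6.6% of its exon bases, is with IMPDH1P10 on the opposite strand. CFLAR per CASP8 count was 0.863 and 2.36 in DMSO and 0.67 and 1.5 in RB-1, which overlapped.

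No change of the IAP genes among the 10 passed, and differences between them were not tested. BIRC2 (cIAP1, ENSG00000110330) was at 50.8 and 25.1 CPM in DMSO and 28.9 and 23.2 CPM in RB-1. DMSO replicate 1 stood alone, 2.03-fold above DMSO replicate 2, and the other 3 libraries lay close together. The log2 fold change of -0.54 ± 0.36 did not pass (edgeR adjusted p = 0.277), and it was 0.06 without DMSO replicate 1 and -0.01 with the length and GC correction.

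BIRC3 (cIAP2, ENSG00000023445) was at 28.5 and 24.0 CPM in DMSO and 10.8 and 36.3 CPM in RB-1. The RB-1 libraries thus fell on either side of the DMSO libraries, 3.35-fold apart, and only 2.22% of tested genes had a larger gap between the RB-1 libraries. The log2 fold change was -0.16 ± 0.51 (edgeR adjusted p = 0.844), with an interval from -1.35 to 1.03. Without RB-1 replicate 2 BIRC3 was called lower (-1.28, adjusted p = 0.0236), and without RB-1 replicate 1 it stood at 0.47 (adjusted p = 0.286). Its transcript of 5197 bases is at the lower edge of the longest quartile, which begins at 5194 bases. The median log2 ratio of RB-1 replicate 2 over replicate 1 was 0.33 in that quartile and 0.09 in the quartile below. BIRC3 per BIRC2 count was 0.562 and 0.956 in DMSO and 0.374 and 1.56 in RB-1, so the lowest and the highest ratio of these neighbouring genes were both in RB-1. They share few sequences: 0.144% of the 50-base words of BIRC3 also occur in BIRC2.

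XIAP (ENSG00000101966), the direct caspase inhibitor, was at 35.3 and 36.5 CPM in DMSO and 50.6 and 59.5 CPM in RB-1. Both RB-1 libraries were the higher, and the replicates of each group were close. The log2 fold change of 0.62 ± 0.27 did not pass (edgeR adjusted p = 0.11), with an interval from 0.02 to 1.21. XIAP has a transcript of 8591 bases, in the quartile where 5.09% of genes were called higher and the median log2 fold change was -0.47. With the length and GC correction it was called higher, at 1.48 (adjusted p = 0.0046), and it did not pass in the other alternatives. Of the 50-base words in its transcripts, 4.37% occur in other genes, most often the pseudogene XIAPP1.

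**Figure D3:**
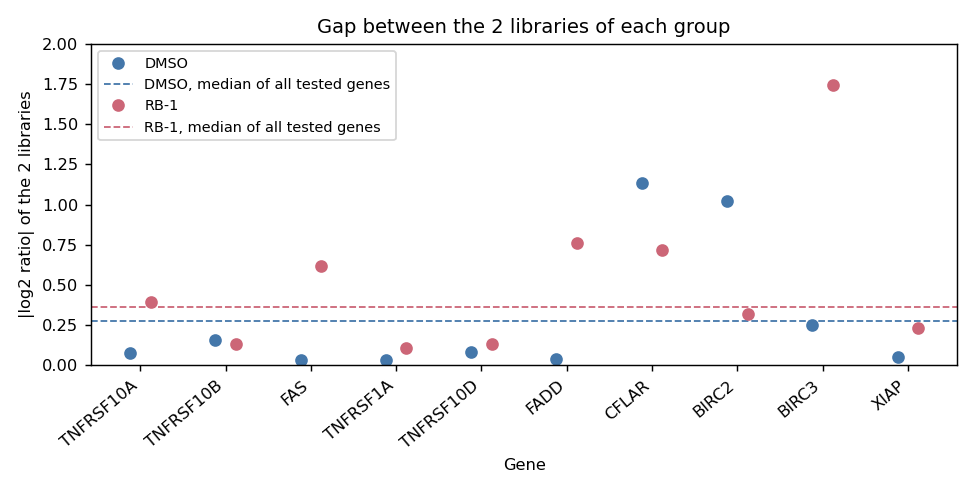
Gap between the 2 libraries of a group for each of the 10 genes (x axis), as the absolute log2 ratio (y axis), DMSO in blue and RB-1 in red, with the median of all tested genes as dashed lines. TNFRSF10B, TNFRSF10D, TNFRSF1A and XIAP lie below both lines, while CFLAR (1.14) and BIRC2 (1.02) in DMSO and BIRC3 (1.75) in RB-1 lie far above.

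The plot of replicate gaps shows where the 2 libraries of a group lay close together. A gap between 2 libraries is only a rough measure of spread. Over all tested genes the replicates of a group differed by a median of 1.21-fold in DMSO and 1.29-fold in RB-1. For TNFRSF10B, TNFRSF10D and TNFRSF1A the gap was at most 1.12-fold in either group. For XIAP it was 1.03-fold in DMSO and 1.17-fold in RB-1. The gap was larger than in most genes for CFLAR and BIRC2 in DMSO, where 5.19% and 6.53% of tested genes had a larger one.

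Levels per kilobase of the longest coding transcript put TNFRSF1A first in both groups, at 71.6 CPM per kilobase in DMSO and 73.7 in RB-1. In DMSO, FADD (29.9), TNFRSF10D (28.1) and TNFRSF10B (22.7) followed, and then TNFRSF10A (10.2) and BIRC2 (9.33). The DMSO libraries of BIRC2, at 12.5 and 6.16, spanned those of TNFRSF10A. BIRC3 (5.05), XIAP (4.18), FAS (3.38) and CFLAR (2.96) came last. In RB-1 the order behind TNFRSF1A was TNFRSF10D (63.1), FADD (53.4) and TNFRSF10B (52.8), with the FADD libraries at 67.2 and 39.7 spanning both others. The place of CFLAR rests on a longest transcript of 14672 bases, and shorter forms would place it higher.

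Around these genes, 48 others of the pathway were listed by role, and 43 of them passed the count filter. Of the 43, 5 rose, 5 fell and 33 did not pass, at a median log2 fold change of 0.18. These shares again lie near the 12.5% and 15.8% of all tested genes. The number of list genes called varied with the library left out, as did the number over all tested genes. Such fits keep only 1 sample in a group, so their calls are not compared with the shares above.

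**Figure D4:**
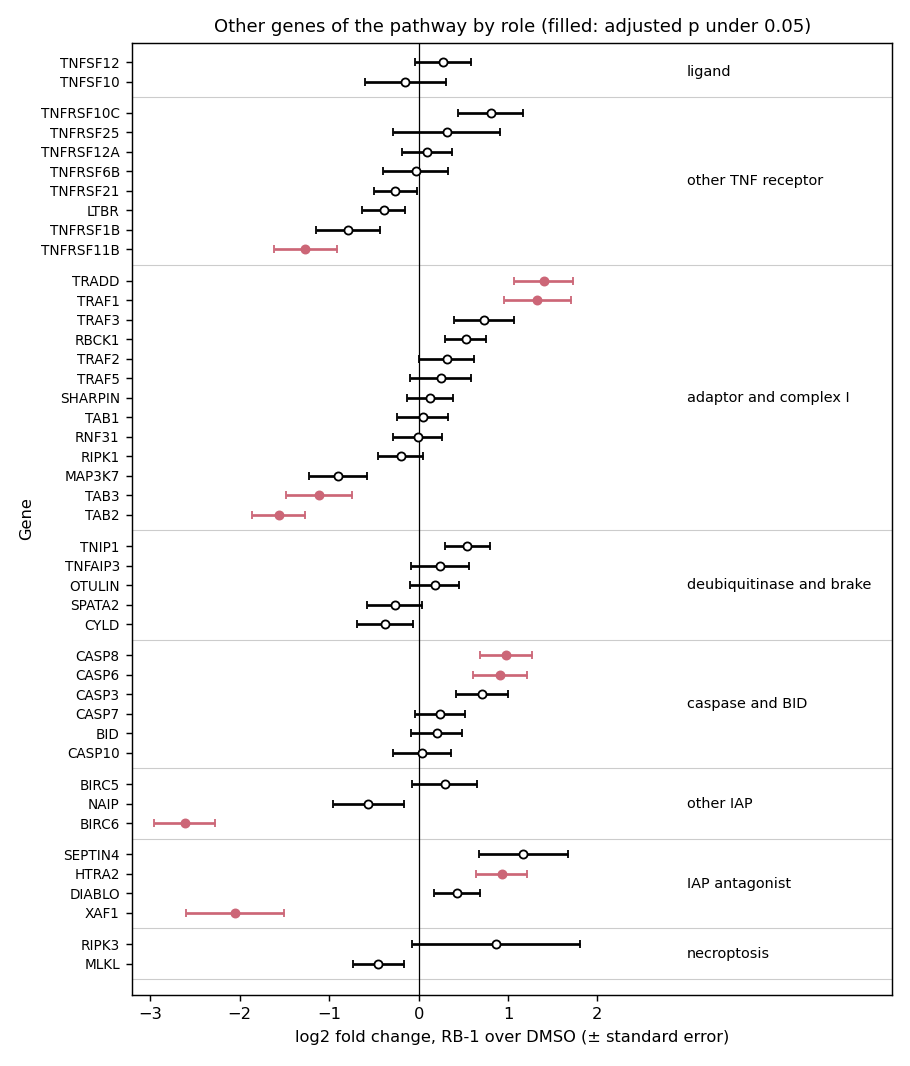
Log2 fold change of RB-1 over DMSO (x axis, ± standard error) for the 43 tested genes of the pathway list (y axis), grouped by role. Filled points passed an adjusted p under 0.05: 5 lie to the right and 5 to the left, with BIRC6 at -2.62 the lowest.

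Of 6 ligand genes, 4 had too few counts to be tested, and neither of the others passed. TNFSF10, which encodes TRAIL, was at 1.38 and 2.08 CPM in DMSO and 1.25 and 1.87 CPM in RB-1, with a log2 fold change of -0.15 ± 0.45 (edgeR adjusted p = 0.834). FASLG, TNF, LTA and TNFSF14, the untested ones, had at most 8 counts in any library. TNFSF12, the ligand TWEAK, was at 12.9 and 17.9 CPM in DMSO and 21.4 and 15.9 CPM in RB-1 (0.27 ± 0.32, edgeR adjusted p = 0.544), and 29.4% of its exon bases are shared with the read-through gene TNFSF12-TNFSF13.

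Of 8 other receptors, against 28.3% of all tested genes called in either direction, only TNFRSF11B passed, and it fell. It encodes osteoprotegerin, a soluble decoy that binds RANK ligand and TRAIL. Its level was 5.85 and 6.38 CPM in DMSO and 2.25 and 2.83 CPM in RB-1, with no overlap (-1.26 ± 0.35, edgeR adjusted p = 0.0229). It no longer passed without DMSO replicate 1 (adjusted p = 0.0727), DMSO replicate 2 (0.122) or RB-1 replicate 1 (0.107), or with library totals alone (-1.06, 0.0627).

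Of 13 adaptors and partners of the TNF receptor 1 complex, 2 rose, 2 fell and 9 did not pass, near the 12.5% and 15.8% of all tested genes. TRADD, the first adaptor on TNF receptor 1, was at 11.2 and 9.31 CPM in DMSO and 33.7 and 20.4 CPM in RB-1 (1.40 ± 0.33, edgeR adjusted p = 0.0123). Its transcript of 1877 bases is in the shortest quartile, where 23.2% of genes were called higher. With the length and GC correction TRADD was at 0.92 ± 0.23 and still passed. TRAF1, a partner of the cIAP proteins, was at 20.5 and 9.19 CPM in DMSO and 37.6 and 37.0 CPM in RB-1 (1.33 ± 0.38, edgeR adjusted p = 0.0258). TAB2 and TAB3, which dock the kinase TAK1 onto ubiquitin chains, were the pair that fell. TAB2 went from 145 and 197 CPM to 43.8 and 71.8 CPM (-1.56 ± 0.30, edgeR adjusted p = 0.00472). TAB3 went from 25.5 and 42.7 CPM to 11.6 and 20.0 CPM (-1.11 ± 0.37, edgeR adjusted p = 0.045), and passed in 7 of the 16 alternatives. It did not pass with the length and GC correction (-0.50, adjusted p = 0.277), library totals alone (-0.88, 0.112), upper-quartile factors (-1.01, 0.0692) or limma-voom (-1.11, 0.0543). When 1 library was left out, TRADD passed in 1 of 4 cases, TRAF1 in 1, TAB2 in 3 and TAB3 in 1. None of the 5 deubiquitinases and brakes passed in edgeR, DESeq2 or limma-voom. At an unadjusted p under 0.05, edgeR and DESeq2 had 0 of them and limma-voom had 1, which was higher. In edgeR 19.6% of all tested genes were higher and 21.7% lower at that threshold, and the shares in DESeq2 and limma-voom are not given here.

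Of 6 genes for caspases and BID, 2 rose and 4 did not pass, against 12.5% of all tested genes called higher. The 6 were not tested as a set. CASP8, the caspase recruited by FADD, was at 31.5 and 25.4 CPM in DMSO and 64.8 and 47.5 CPM in RB-1 (0.98 ± 0.29, edgeR adjusted p = 0.0304). CASP6, an effector caspase, was at 22.8 and 17.1 CPM in DMSO and 41.8 and 33.4 CPM in RB-1 (0.91 ± 0.30, edgeR adjusted p = 0.0431). Both passed in 1 of the 4 cases with a library left out, and CASP6 did not pass with the length and GC correction (0.60, adjusted p = 0.062).

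Among the other IAP genes, BIRC6 had the largest fall of the list. It encodes BRUCE, a very large IAP that also conjugates ubiquitin. The BIRC6 transcript of 15703 bases is in the longest quartile, where 31.0% of genes were called lower and the median log2 fold change was -0.47. Its level was 91.4 and 65.8 CPM in DMSO and 9.81 and 15.8 CPM in RB-1, with the groups far apart (-2.62 ± 0.34, edgeR adjusted p = 0.000757). It passed in all 16 alternatives, at -3.0 to -1.59, the smallest size being that with the length and GC correction. BIRC5, the mitotic IAP survivin, was at 86.1 and 37.5 CPM in DMSO and 75.6 and 75.9 CPM in RB-1 (0.29 ± 0.36, edgeR adjusted p = 0.573). NAIP was at 5.73 and 4.36 CPM in DMSO and 2.39 and 4.46 CPM in RB-1 (-0.56 ± 0.40, edgeR adjusted p = 0.314). BIRC7 had at most 7 counts in any library and was not tested.

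Of 4 genes for IAP antagonists, 1 rose, 1 fell and 2 did not pass, against 12.5% of all tested genes called higher and 15.8% lower. HTRA2, a mitochondrial protease that binds IAP proteins once released, was at 22.6 and 19.8 CPM in DMSO and 45.1 and 35.6 CPM in RB-1 (0.93 ± 0.29, edgeR adjusted p = 0.0349). Its call was lost with the length and GC correction (0.61, adjusted p = 0.0506) and held in 1 of the 4 cases with a library left out. HTRA2 is uncertain, since 20.8% of its exon bases overlap LOXL3 and 16.1% AUP1, both on the opposite strand. XAF1, an interferon-induced partner of XIAP, was at 2.06 and 2.93 CPM in DMSO and 0.318 and 0.881 CPM in RB-1 (-2.05 ± 0.55, edgeR adjusted p = 0.0198). It rests on 12 and 33 counts in RB-1, passed in 2 of the 4 cases with a library left out, and shares 38.3% of its exon bases with PRAL on the opposite strand. Neither necroptosis gene of the list passed in edgeR, DESeq2 or limma-voom. At an unadjusted p under 0.05 edgeR had 0 of them, as did DESeq2 and limma-voom. At that threshold edgeR had 19.6% of all tested genes higher and 21.7% lower.

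**Figure D5:**
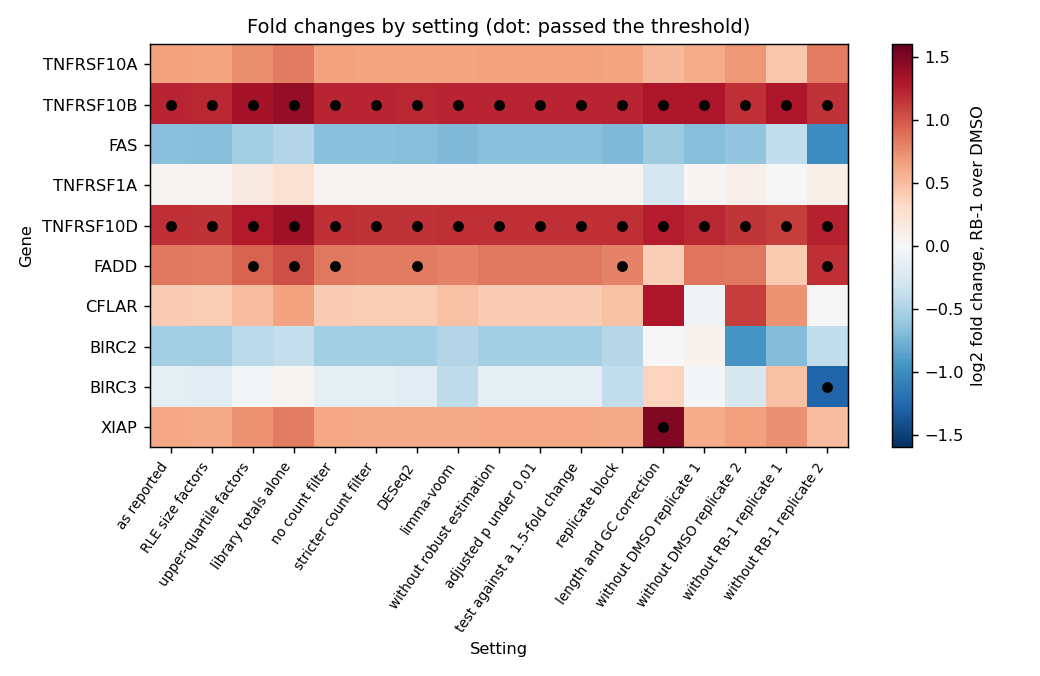
Log2 fold change (colour) of the 10 genes (rows) in the reported fit and in 16 alternative settings (columns), with a dot where the change passed the threshold. TNFRSF10B and TNFRSF10D carry a dot in every column, FADD in 6 alternatives, XIAP with the length and GC correction and BIRC3 without RB-1 replicate 2.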

How the data were processed

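RNA-seq libraries of MDA-MB-231 cells were compared, 2 kept with DMSO and 2 kept with RB-1. The authors deposited raw counts per gene for 20263 human Ensembl gene IDs, as whole numbers and with no pooling. The sources used here name no aligner, counter or strand setting. The submitters' processing notes list GRCm38 and mm10, which are mouse builds, while all IDs are human, and which build gave the counts is unknown. The only coordinates printed are those of promoter windows, taken from RefSeq (GRCh38.p14) by symbol. GENCODE release 29 gave transcript lengths and exon overlaps.

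The 13612 genes kept by filterByExpr were scaled by TMM (factors 0.868 to 1.10) and tested in edgeR 4.0.16 (R 4.3.3) by its two-sided quasi-likelihood F test, fitted robustly (estimateDisp, glmQLFit, glmQLFTest). P-values were adjusted by Benjamini-Hochberg over those genes and the threshold was 0.05. CPM values are edgeR's cpm of the counts with TMM-scaled library sizes. A standard error is the log2 fold change divided by the square root of F, and its 95% interval uses the fit's degrees of freedom. Replicates differed far beyond sampling noise (chi-square per degree of freedom 255 in DMSO and 127 in RB-1). The fit was tested on simulated counts. It recovered 0 of 63 changes of 1.5-fold, 10 of 69 of 2-fold and 51 of 68 of 4-fold, with 2 false calls. Far fewer genes were changed in the simulation than were called in the data, so these shares may not carry over. The alternatives were RLE, upper-quartile and no factors, no count filter or a stricter one (50 counts in 2 libraries), DESeq2 1.42.0, limma-voom (limma 3.58.1), no robust estimation, an adjusted p under 0.01, a test against a 1.5-fold change, a replicate block, a correction for transcript length and GC content, and leaving out each library. The length and GC correction was fitted to each library, RB-1 libraries included. It can therefore also remove a change with RB-1 that follows length or GC content, and whether it did was not tested.

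The genes and lists were chosen with earlier results of these data known. Named were the 10 genes, the called genes of a list of 48 others, and its ligands and inhibitor of apoptosis (IAP) genes. TNFRSF10C was added outside that rule.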

Additional observations from a re-analysis of the deposited data

How the results depend on the processing

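TNFRSF10B and TNFRSF10D passed in every alternative that kept all libraries. With a library left out, their log2 fold changes were 1.15 to 1.30 and 1.11 to 1.23. In the alternatives that kept all libraries, 2 or 3 of the 10 genes were higher. The share of all tested genes called higher there ran from 3.68% (adjusted p under 0.01) to 15.7% (upper-quartile factors). None of the 10 genes was called lower in those settings, and BIRC3 was at -1.28 without RB-1 replicate 2. The sign of an uncalled change turned for BIRC2 without DMSO replicate 1 (0.057; the fits with a library left out ran from -0.94), for CFLAR without DMSO replicate 1 (-0.059; up to 1.10), for BIRC3 with library totals alone (0.049), the length and GC correction (0.35) or without RB-1 replicate 1 (0.47; down to -1.28), and for TNFRSF1A with that correction (-0.27) or without RB-1 replicate 1 (-0.0063; up to 0.095). It also turned for BIRC5 without DMSO replicate 2 (-0.16; up to 1.01), for TNFSF10 with library totals alone (0.074), without DMSO replicate 2 (0.20) or RB-1 replicate 1 (0.12; down to -0.47), and for TNFSF12 with the correction (-0.25). An adjusted p under 0.01 left 0 genes of the pathway list higher, 2 lower and 1559 genes called in all, of 3851. The test against a 1.5-fold change left 1, 3 and 1838. Library totals alone left 3 lower. With a library left out the list held 0 to 4 higher and 1 to 6 lower, and 1474 to 4347 genes were called in all. These fits have fewer samples, and the lone library of a group is assumed to vary like the other group. Of all genes, 1702 were called higher and 2149 lower. Upper-quartile factors gave 2134 and 1815 and library totals alone 2015 and 1381, which moved the median over all genes by 0.11 and 0.19 on the log2 scale. Libraries share replicate numbers across groups, but same-numbered ones did not deviate together (correlation -0.10), so the numbers were not taken as pairs. With the replicate block 3 of the 10 genes were higher (FADD at 0.79, adjusted p = 0.0492) and none lower, with 5 list genes higher, 6 lower and 4010 genes called in all. With 2 libraries a group, changes of 2-fold and more may go undetected. In the simulation, most changes of 2-fold and some of 4-fold were missed.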
